A study of Mus musculus with 6 samples.

Results

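The genes described here are those of the embryo's red blood cells, read in RNA from hearts dissected at embryonic day 9.5. They were taken from a list of 39 erythroid genes: the globins, the enzymes and carriers of haem synthesis, the erythropoietin and iron receptors, 3 erythroid transcription factors, and proteins of the red cell membrane and cytoplasm. A row of the deposited table was found by gene symbol for 34 of the 39, out of 15330 rows in all. The 5 listed genes with no row in the table were Hbb-bh2, Hba-a2, Hbb-bs, Ahsp and Tspo2.

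The study compared 3 libraries of wild-type hearts with 3 libraries of hearts carrying H2-URI d/d, a homozygous deletion of 373 kb upstream of Hand2 made with CRISPR-Cas9. Hand2 encodes a transcription factor needed in the developing heart, and the labels name no cell type to which the deletion would be limited. In each group replicates 1 and 2 are labelled F and replicate 3 is labelled M, and all 6 libraries carry batch number 1. The labels name no mouse strain and no drug or other agent. They do not say whether a library holds 1 heart or several, so each p-value below measures the spread between libraries, which may be technical.

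Primitive red cells arise in the blood islands of the yolk sac and enter the circulation while still nucleated, so they keep transcribing as they pass through the heart. They carry haemoglobin made of embryonic globin chains: zeta (Hba-x) on the alpha side, and epsilon-y (Hbb-y) and beta-H1 (Hbb-bh1) on the beta side. The adult-type chains, made from Hba-a1, Hba-a2, Hbb-bt and Hbb-bs, become the main ones in definitive red cells, which come from later waves of blood formation. Gata1 and Klf1 are transcription factors that switch on globin, haem and membrane genes during red cell maturation.

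Reads recovered from the deposited values and summed over the 15330 rows came to 25583210 to 32043595 a library. Values listed 3 at a time are in the order of replicates 1, 2 and 3 of a group. Hand2 itself stood at 3911, 3789 and 4407 normalized counts in the wild-type libraries and at 1025, 1158 and 1163 in the deletion libraries. Each library was identified by the code in its title, which matches 1 column header of the table. Of the 6 files, 5 hold a single column and the other is the table itself. In all, 4 of the 6 are recorded under a sample of the other group than the title code gives. Values under that recorded assignment are given with the processing alternatives. Cardiomyocyte markers, 10 of 10 with a row, summed to between 856151 and 979980 normalized counts in the wild-type libraries and between 909273 and 994834 in the deletion libraries.

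Libraries stood apart in their blood transcripts within each group. The 5 measured globins summed to 203148, 344475 and 118023 normalized counts in the wild-type libraries, and to 83655, 212329 and 445386 in the deletion libraries. Deletion replicate 3 and wild-type replicate 2 were therefore rich in globin RNA, and deletion replicate 1 and wild-type replicate 3 were poor in it. As a share of all normalized counts in a library, globin RNA made up 0.700%, 1.21% and 0.402% in the wild-type libraries and 0.297%, 0.759% and 1.59% in the deletion libraries. The 2 groups overlapped: the highest and the lowest library were both deletion libraries. In whole hearts, fewer red cells and less RNA in each red cell cannot be told apart.

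None of the 34 erythroid genes passed the test of deletion against wild-type. Under limma on log2(normalized count + 1), with Benjamini-Hochberg adjustment over all 15330 genes and a threshold of 0.05, 0 of the 34 were lower and 0 were higher, where 3.05% of all genes passed (1.5% lower and 1.55% higher). At an unadjusted p under 0.05 the count was again 0 of 34, beside 21.4% of all genes. Both edgeR and DESeq2 on recovered reads also called 0 of 34, where they called 3.26% and 7.89% of all genes, and each had 1 of the 34 at an unadjusted p under 0.05. In none of the 34 were the 3 libraries of one group all above the 3 of the other, against 27.4% of all genes.

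The direction of the differences was mostly towards higher values in the deletion, but they were small beside the spread. Of the 34 log2 fold changes, 27 were above 0 and 7 below, with a median of 0.13, beside a median of −0.01 over all genes. The 7 below 0 were Hbb-y, Hbb-bh1, Hbb-bt, Uros, Urod, Slc25a38 and Blvrb. The smallest adjusted p among the 34 was 0.247 by limma, for Ppox, the protoporphyrinogen oxidase of haem synthesis, with a log2 fold change of 0.38. The balance of directions turned with single libraries: without deletion replicate 3 it was 6 above 0 and 28 below, and without wild-type replicate 3 it was 12 and 22. With any 1 of the 6 libraries left out, 0 of the 34 passed the test. Over all 15330 genes these fits called 61 to 695 lower and 42 to 466 higher. Under the recorded file assignment 0 of all genes passed, so 0 of the 34 there tells nothing about these genes in particular.

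The genes varied widely between libraries of the same genotype. The median standard deviation of log2 values within groups was 0.85 over the 34 genes and 0.13 over all genes. It exceeded 0.5 for 22 of the 34, or 64.7%, and for 4.49% of all genes. In the ranking of all genes by this standard deviation, 23 of the 34 lay at or above the 95th percentile and 17 at or above the 99th.

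The variation ran in one order through nearly the whole set. Deletion replicate 3 had the highest value of the 6 libraries for 32 of the 34 genes, beside 15.5% of all genes, and the other 2, Hbb-bt and Uros, were highest in wild-type replicate 2. Deletion replicate 1 was lowest for 26 genes, wild-type replicate 3 for 6 and wild-type replicate 1 for 2. Among wild-type hearts the order replicate 3, replicate 1, replicate 2 from low to high held for 30 genes, and for 14.0% of all genes. Among deletion hearts the order replicate 1, replicate 2, replicate 3 held for 33, with Tfrc as the exception, and for 15.9% of all genes. Both orders held together for 30 of the 34 and for 4.02% of all genes.

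**Figure D1:**
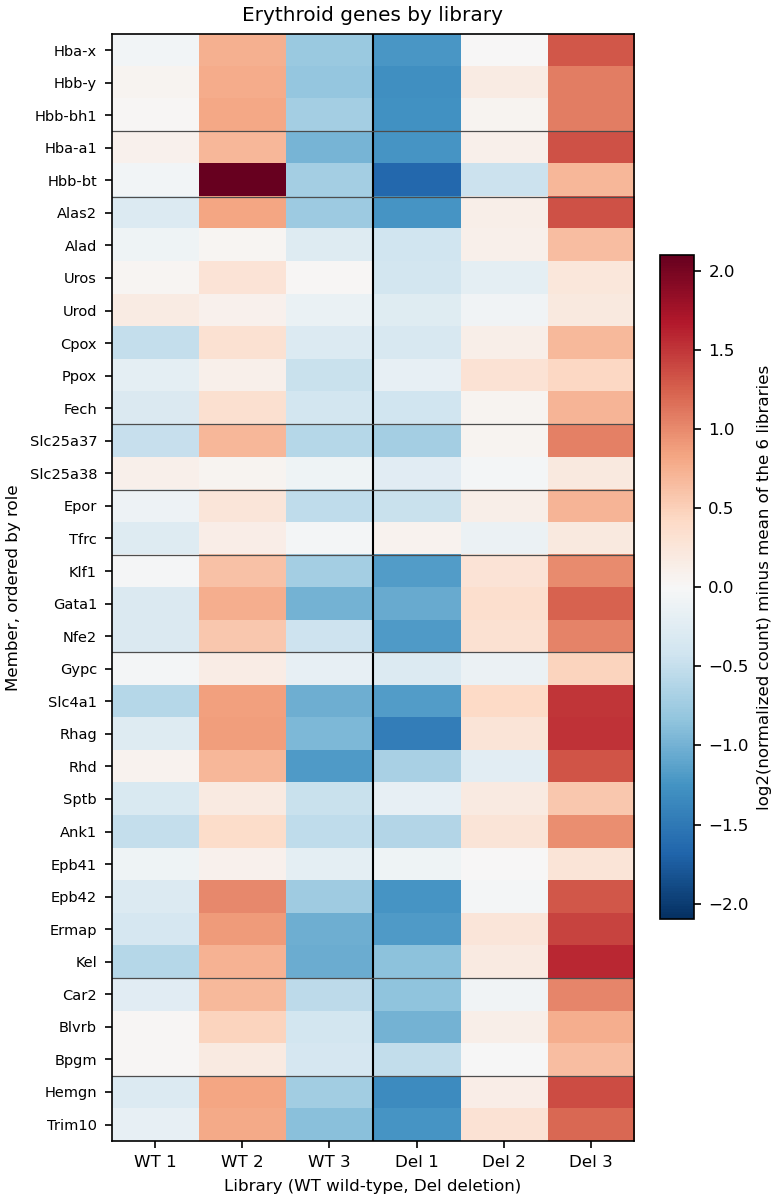
Heat map of the 34 measured erythroid genes in rows, grouped by role, and the 6 libraries in columns. Colour gives log2(normalized count) minus the gene's mean over the 6 libraries. The columns of deletion replicate 3 and wild-type replicate 2 are above the mean in most rows, and those of deletion replicate 1 and wild-type replicate 3 below it.

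Among the embryonic globins, Hbb-bh1 gave 75473, 130125 and 45245 normalized counts in the wild-type libraries and 30703, 77190 and 156086 in the deletion libraries. Its log2 fold change was −0.09 (95% confidence interval −1.27 to 1.10). Hbb-y gave 68030, 111609 and 37220 in the wild-type and 26633, 73395 and 137683 in the deletion libraries, a log2 fold change of −0.02 (−1.24 to 1.19). The groups overlapped for both beta-type chains, and deletion replicate 1 was the lowest library and deletion replicate 3 the highest.

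Hba-x, the alpha-type chain of embryonic haemoglobin, gave 54715, 95039 and 33173 normalized counts in the wild-type libraries and 24356, 56746 and 139927 in the deletion libraries. Its log2 fold change was 0.05 (−1.19 to 1.3). The 3 embryonic globins thus followed one course over the libraries: each was 5.08 to 5.74 times higher in deletion replicate 3 than in deletion replicate 1, and 2.86 to 3.00 times higher in wild-type replicate 2 than in wild-type replicate 3. Over all 5 globins summed, these folds were 5.32 and 2.92. The sum itself had a log2 difference between groups of −0.02, with p = 1.0 in an exact two-sided permutation test, whose smallest possible p for 3 against 3 is 0.1.

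Adult-type alpha globin was present at a lower level. Hba-a1 gave 4866, 7409 and 2346 normalized counts in the wild-type libraries and 1941, 4950 and 11584 in the deletion libraries, with a log2 fold change of 0.13 (−1.16 to 1.42). It had the same high and low libraries as the embryonic chains. Its near copy Hba-a2 has no row, and the coding sequences of the pair differ at 1 of 429 bases in GENCODE M21, so how reads shared between them were counted bears on this value and is not given in the sources used here.

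Adult-type beta globin had few counts and stood apart from the other globins mainly in wild-type replicate 2. Hbb-bt gave 63.6, 292.7 and 40.3 normalized counts in the wild-type libraries and 21.1, 48.3 and 106.9 in the deletion libraries. These rest on 56, 329, 44, 20, 52 and 99 recovered reads in the same order, so counting error is larger here than for any embryonic chain. Wild-type replicate 2 was by far the highest library, at 7.27 times wild-type replicate 3, where the other 4 globins had folds of 2.86 to 3.16. Deletion replicate 3 was 5.06 times deletion replicate 1, beside 5.08 to 5.97 for the other 4, and both orders of libraries held. The log2 fold change of Hbb-bt was −0.91 (−2.52 to 0.69) and the groups overlapped. Its near copy Hbb-bs, which differs at 1 of 444 coding bases, has no row. How reads shared between the pair were counted bears on the level of Hbb-bt and is not given in the sources used here.

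Per kilobase of transcript, the scale on which genes can be set against each other, the level order of the globins was the same in all 6 libraries. In wild-type replicate 1, normalized counts per kilobase were 123121 for Hbb-bh1, 107472 for Hbb-y, 68309 for Hba-x, 6961 for Hba-a1 and 90.4 for Hbb-bt. In deletion replicate 3, the richest library, they were 254627 for Hbb-bh1, 217508 for Hbb-y, 174690 for Hba-x, 16572 for Hba-a1 and 152.1 for Hbb-bt. The gap between the embryonic chains was small beside the spread over libraries, while Hba-a1 and Hbb-bt lay below every embryonic chain in every library. How reads shared with their near copies were counted bears on the levels of Hba-a1 and Hbb-bt. Lengths are those of the longest transcript in GENCODE M21, an annotation of another build than the authors'.

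**Figure D2:**
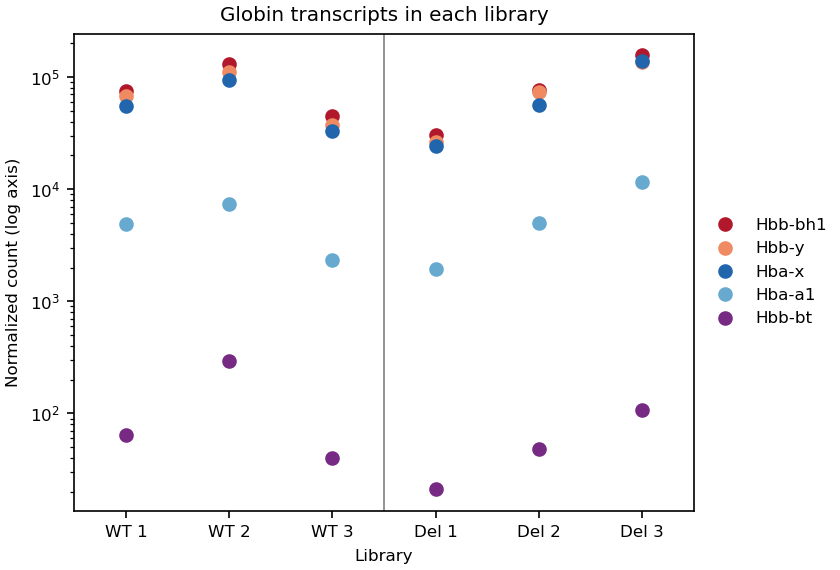
Normalized counts of the 5 measured globins on a log axis in the 6 libraries, 3 wild-type and 3 deletion, 1 point a library. The embryonic Hbb-bh1, Hbb-y and Hba-x lie close together and rise and dip with Hba-a1 from library to library, and Hbb-bt lies far below them with its highest point, 292.7, in wild-type replicate 2.

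Within a library the balance between globin chains varied much less than their amount. The ratio of Hbb-y to Hbb-bh1 was 0.901, 0.858 and 0.823 in the wild-type libraries and 0.867, 0.951 and 0.882 in the deletion libraries. Hba-a1 stood at 8.89%, 7.80% and 7.07% of Hba-x in the wild-type and at 7.97%, 8.72% and 8.28% in the deletion libraries. For neither ratio did the groups separate: exact two-sided permutation p = 0.4 and p = 0.5, and 0.625 for both after Benjamini-Hochberg adjustment over the 5 such quantities tested.

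The ratio of alpha-type to beta-type globins, added after the values were seen, was 0.415, 0.423 and 0.431 in the wild-type and 0.458, 0.410 and 0.516 in the deletion libraries (exact permutation p = 0.4, adjusted p = 0.625). Deletion replicate 3, the library with the most globin, had the highest of these ratios, and deletion replicate 2 the lowest. The adult-type share of beta globin, from Hbb-bt alone since Hbb-bs has no row, was the one ratio whose groups did not overlap. Hbb-bt made up 0.0443%, 0.121% and 0.0488% of the embryonic beta-type counts in the wild-type libraries and 0.0368%, 0.0321% and 0.0364% in the deletion libraries. The mean log2 difference was −0.87 with an exact permutation p of 0.1, the smallest that 3 against 3 can give, and an adjusted p of 0.5. Without wild-type replicate 2 the difference was −0.41, and wild-type replicates 1 and 3 lay close above the deletion libraries.

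The stretches before the transcription start sites are shown for 6 of the members. These are 4 globins, Alas2, the first haem enzyme of red cells, and Rhag, which had the largest fold between deletion replicates 1 and 3. Promoter entries were found in RefSeq (GRCm38.p6) by symbol for 26 of the 34, and the 200 bases before the start are printed 5′ to 3′ on the gene's strand. Positions are chr11:32276400-32276599 on the plus strand for Hba-x, chr11:32283472-32283671 on the plus strand for Hba-a1, chr7:103853208-103853407 on the minus strand for Hbb-y, chr7:103813924-103814123 on the minus strand for Hbb-bt, chrX:150547217-150547416 on the plus strand for Alas2, and chr17:40810949-40811148 on the plus strand for Rhag. Capitals mark 3 motifs, searched on both strands. GATAA, or TTATC where it lies on the other strand, is the core of sites bound by GATA factors. CACCC, or GGGTG on the other strand, is the core of boxes bound by Klf1 and its relatives. The last is CCAAT, a common promoter box, which reads ATTGG on the other strand.
Hba-x: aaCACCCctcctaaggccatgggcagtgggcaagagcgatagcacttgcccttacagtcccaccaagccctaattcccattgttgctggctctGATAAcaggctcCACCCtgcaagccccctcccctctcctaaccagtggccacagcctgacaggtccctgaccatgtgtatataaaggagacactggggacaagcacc
Hba-a1: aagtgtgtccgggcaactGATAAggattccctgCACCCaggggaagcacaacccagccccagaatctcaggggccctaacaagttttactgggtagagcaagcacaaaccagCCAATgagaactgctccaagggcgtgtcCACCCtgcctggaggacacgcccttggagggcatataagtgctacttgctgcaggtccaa
Hbb-y: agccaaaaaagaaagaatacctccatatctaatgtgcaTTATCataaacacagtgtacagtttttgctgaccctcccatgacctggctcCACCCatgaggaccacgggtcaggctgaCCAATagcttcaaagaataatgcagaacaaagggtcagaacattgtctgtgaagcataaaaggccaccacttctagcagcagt
Hbb-bt: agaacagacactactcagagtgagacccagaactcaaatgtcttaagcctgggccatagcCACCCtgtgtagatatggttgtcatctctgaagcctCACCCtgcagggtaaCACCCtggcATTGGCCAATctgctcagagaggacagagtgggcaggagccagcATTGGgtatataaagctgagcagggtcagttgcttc
Alas2: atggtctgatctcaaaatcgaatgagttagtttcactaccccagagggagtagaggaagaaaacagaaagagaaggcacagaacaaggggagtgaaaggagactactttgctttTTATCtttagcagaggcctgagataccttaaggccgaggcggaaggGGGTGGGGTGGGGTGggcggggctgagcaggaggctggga
Rhag: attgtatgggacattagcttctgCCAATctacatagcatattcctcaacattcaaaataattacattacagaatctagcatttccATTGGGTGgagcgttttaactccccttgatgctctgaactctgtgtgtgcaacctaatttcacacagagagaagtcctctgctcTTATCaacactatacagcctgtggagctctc

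Hba-a1 and Hbb-y held all 3 motifs within these 200 bases. So did Rhag, where a CCAAT match on the other strand overlaps a CACCC match. Hba-x and Alas2 held GATAA and CACCC, in Alas2 as 3 CACCC matches in a row on the other strand, and Hbb-bt held 3 CACCC and 3 CCAAT matches. Among the 26 genes with an entry, each taken at its first listed start, GATAA was found in 13, CACCC in 16, CCAAT in 12 and all 3 in 5. Over all 32851 RefSeq promoters of the same length, the shares were 18.1%, 45.5%, 29.3% and 2.02%. Those count every listed start of every gene, so the units are not alike. A match is a string of letters and not a measured binding site. Whether the motifs bear on the order of libraries was not tested. Hbb-bh1, Nfe2, Slc4a1, Ank1, Gypc, Car2, Fech and Slc25a37 had no entry.

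Haem synthesis starts in the mitochondrion with glycine and succinyl-CoA and ends there with the insertion of iron. None of its 7 enzymes on the list passed the test. Alas2, the red cell form of the first enzyme, gave 1153, 2489 and 820.9 normalized counts in the wild-type libraries and 596.4, 1518 and 3520 in the deletion libraries, with a log2 fold change of 0.15 (−1.13 to 1.42). It had the same order of libraries as the globins, at 5.90-fold between deletion replicates 1 and 3. The later enzymes, which other cells of the heart also use, varied less.

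Cpox, which makes protoporphyrinogen, gave 2017, 3558 and 2349 normalized counts in the wild-type and 2267, 3119 and 4609 in the deletion libraries, with a log2 fold change of 0.32. Alad, the second enzyme of the pathway, gave 2242, 2469 and 1978 in the wild-type and 1785, 2586 and 3737 in the deletion libraries, with a log2 fold change of 0.22. For both, deletion replicate 3 was the highest library and the groups overlapped. Between deletion replicates 1 and 3 the fold was 2.03 for Cpox, 2.09 for Alad, 2.19 for Fech, which inserts the iron, 1.54 for Uros, 1.52 for Ppox and 1.38 for Urod. A separate list of 6 genes of haem synthesis outside red cells and of iron-sulphur assembly had 0 lower and 0 higher.

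The mitochondrial carriers split in the same way. Slc25a37, the iron importer mitoferrin of red cells, gave 3175, 7236 and 2948 normalized counts in the wild-type and 2722, 4624 and 9235 in the deletion libraries, a log2 fold change of 0.26. Slc25a38, the carrier that takes glycine into mitochondria, gave 493.7, 477.7 and 429.2 in the wild-type and 390.5, 446.6 and 525.9 in the deletion libraries, a log2 fold change of −0.05. The first was 3.39 times higher in deletion replicate 3 than in deletion replicate 1, and the second 1.35 times.

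Epor, the receptor through which erythropoietin keeps red cell precursors alive, gave 232.7, 298.9 and 173.0 normalized counts in the wild-type and 180.5, 272.0 and 410.4 in the deletion libraries, with a log2 fold change of 0.25 (−0.38 to 0.88). Tfrc, the transferrin receptor that brings iron into dividing cells of many kinds, gave 6594, 8784 and 7737 in the wild-type and 8349, 7296 and 9122 in the deletion libraries, with a log2 fold change of 0.10 (−0.15 to 0.36). Epor followed the globin order of the libraries, with overlapping groups. Tfrc did not: deletion replicate 2 lay below deletion replicate 1, and the fold between deletion replicates 1 and 3 was 1.09, the smallest of the 34 genes.

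The erythroid transcription factors had the same high and low libraries. Klf1, which activates adult and embryonic globin genes, gave 249.7, 391.4 and 154.7 normalized counts in the wild-type and 112.9, 311.0 and 508.7 in the deletion libraries, with a log2 fold change of 0.08 (−1.02 to 1.18). Gata1, without which red cell precursors die, gave 145.3, 303.4 and 89.7 in the wild-type and 85.5, 229.3 and 423.3 in the deletion libraries, with a log2 fold change of 0.36 (−0.88 to 1.59). Both had the globin order of libraries, and so did Nfe2, a partner of the small Maf proteins at globin control regions. The 3 were 4.50 to 4.95 times higher in deletion replicate 3 than in deletion replicate 1.

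Of the 10 genes of the red cell membrane and its skeleton, all had log2 fold changes above 0, from 0.03 to 0.61, and none passed the test. Slc4a1, the band 3 anion exchanger that is the main protein of the red cell membrane, gave 1882, 5221 and 1412 normalized counts in the wild-type and 1267, 3840 and 8139 in the deletion libraries, a log2 fold change of 0.50 (−0.90 to 1.91). Rhag, of the Rh complex, had the largest fold of the 34 between deletion replicates 1 and 3, at 7.90, from 74.9 to 591.8 normalized counts. Kel, the Kell blood group protein, had the largest log2 fold change of these 10 genes between groups, 0.61 (−0.68 to 1.89).

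Epb41 and Sptb, the most abundant of this group, varied less. Epb41, protein 4.1, gave 5095, 5754 and 4705 normalized counts in the wild-type and 5112, 5451 and 6563 in the deletion libraries, with a log2 fold change of 0.14. Sptb, beta-spectrin, which links the membrane to actin in red cells and is also made in striated muscle, gave 3160, 4498 and 2855 in the wild-type and 3483, 4482 and 5791 in the deletion libraries, with a log2 fold change of 0.38. Deletion replicate 3 was the highest library for both. The folds between deletion replicates 1 and 3 were 1.28 for Epb41 and 1.66 for Sptb, against 3.01 for Ank1, the ankyrin that ties spectrin to band 3, and 5.79 for Epb42, protein 4.2.

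The remaining members were cytoplasmic enzymes and 2 further erythroid genes. Bpgm, which makes the bisphosphoglycerate that tunes oxygen release, gave 1540, 1730 and 1188 normalized counts in the wild-type and 1066, 1516 and 2390 in the deletion libraries. Car2, a carbonic anhydrase, gave 1270, 2381 and 1019 in the wild-type and 830.7, 1412 and 3040 in the deletion libraries. Their log2 fold changes were 0.10 and 0.07, with overlapping groups and the globin order of libraries.

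Hemgn, a nuclear protein of blood precursors, gave 358.7, 782.0 and 263.6 normalized counts in the wild-type and 176.3, 480.0 and 1130 in the deletion libraries. Trim10, a ring-finger protein of maturing red cells, gave 185.0, 359.4 and 113.5 in the wild-type and 87.6, 255.3 and 478.4 in the deletion libraries. Both were again highest in deletion replicate 3 and lowest in deletion replicate 1, with folds between these libraries of 6.41 and 5.46 and log2 fold changes between groups of 0.12 and 0.17.

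Across the 34 genes, the fold between deletion replicates 3 and 1 varied widely, also within some roles. Among the haem synthesis enzymes it ran from 1.38 to 5.90, and among the membrane and skeleton genes from 1.28 to 7.90. It was 4 or more for 16 genes, namely all 5 globins, Alas2, the 3 transcription factors, Slc4a1, Rhag, Epb42, Ermap, Kel, Hemgn and Trim10. It lay from 1.5 up to 4 for 14 genes and under 1.5 for 4: Urod, Slc25a38, Tfrc and Epb41. The median over the 34 was 3.83, and over all genes it was 0.99. The corresponding comparison among wild-type hearts was between replicates 2 and 3, where the median fold was 2.40 and the range was from 1.11 for Slc25a38 to 7.27 for Hbb-bt.

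**Figure D3:**
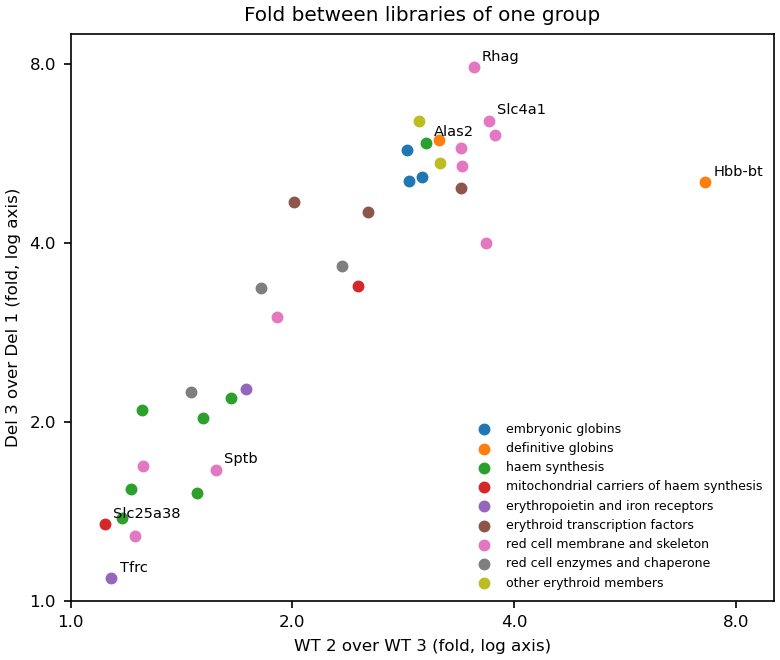
Fold between 2 libraries of one group for each of the 34 genes, on log axes: wild-type replicate 2 over replicate 3 on the horizontal axis and deletion replicate 3 over replicate 1 on the vertical axis. Tfrc, Slc25a38, Urod and Epb41 sit near 1 on both axes, most globins near 3 and 5, and Hbb-bt stands apart at 7.27 on the horizontal axis.

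Since globin RNA differed 5.32-fold between deletion replicates 1 and 3, the members were also expressed per 10000 globin counts, which divides out the amount of globin RNA in a library. On this scale Alas2 was nearly level, at 56.8, 72.3 and 69.6 in the wild-type and 71.3, 71.5 and 79.0 in the deletion libraries. Groups did not overlap for 5 of the 34 on this scale, and for 0.32% of all genes. Most genes do not follow globin, and dividing by it spreads their values, so that share is no fair background for the members. Without the division, groups did not overlap for 27.4% of all genes and for 0 of the 34. Gata1, Kel and Trim10 were higher in every deletion library, and Hbb-bh1 and Hbb-bt, both part of the divisor, lower. For each of these 5 the smallest two-sided p that an exact permutation test of 3 against 3 can give is 0.1, so none can pass the threshold.

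Per 10000 globin counts, Gata1 stood at 7.15, 8.81 and 7.60 in the wild-type and 10.2, 10.8 and 9.51 in the deletion libraries. Kel stood at 8.55, 12.6 and 10.8 in the wild-type and 17.3, 14.1 and 17.5 in the deletion libraries. Trim10 stood at 9.11, 10.4 and 9.62 in the wild-type and 10.5, 12 and 10.7 in the deletion libraries. The gap was narrowest for Trim10, whose highest wild-type and lowest deletion values nearly met. Hbb-bh1, itself part of the sum, made up 3715, 3777 and 3834 of each 10000 in the wild-type and 3670, 3635 and 3505 in the deletion libraries. Tfrc, which does not follow globin, ran from 255.0 to 655.5 in the wild-type and from 204.8 to 998.0 in the deletion libraries on this scale.

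**Figure D4:**
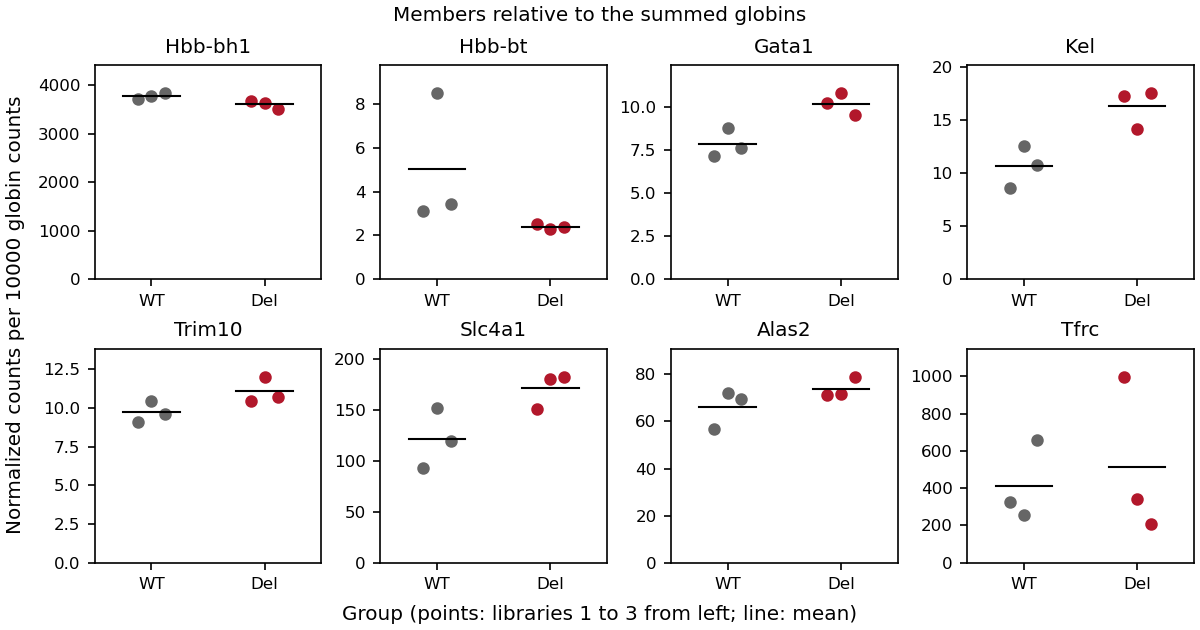
Normalized counts per 10000 globin counts for 8 members, 1 panel a gene with its own linear axis from 0. Points are libraries 1 to 3 of the wild-type and the deletion group from left to right, and lines are group means. Groups separate for Hbb-bh1, Hbb-bt, Gata1, Kel and Trim10, overlap for Slc4a1 and Alas2, and spread widely for Tfrc, which reaches 998.0 in deletion replicate 1.

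A set of 15 non-globin members was summarised as its mean log2(normalized count + 1) minus the log2 of the summed globins. It was drawn up as genes largely restricted to red cells, but it includes Sptb, which is also made in striated muscle. Sptb, Epor and Ank1 had folds of 1.66, 2.27 and 3.01 between deletion replicates 1 and 3. The others ran from 4.00 for Rhd to 7.90 for Rhag, and the summed globins had 5.32. For genes that vary less than globin, the difference is pushed up where globin RNA is low. This difference was −9.31, −9.10 and −9.04 in the wild-type and −8.74, −8.89 and −8.95 in the deletion libraries. Every deletion library thus lay above every wild-type library, by 0.29 on average, with no share over all genes at hand for such a mean. Within the deletion group the value was highest in replicate 1, the library poorest in globin RNA, and lowest in replicate 3, the richest. In the wild-type group it was lowest in replicate 1, so it did not follow globin content there.

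The same question was asked of every gene with a fit that takes the log2 of the summed globins as a covariate, chosen after the data were seen. The covariate is built from 5 of the members, so for these it uses their own values. With it, the median within-group standard deviation of the 34 genes came down from 0.85 to 0.13, the median of all genes without it. Sptb was then called higher in the deletion, with a log2 difference of 0.39 (0.21 to 0.57) and an adjusted p of 0.0344 by limma. That was 1 of the 34, beside 3.16% of all genes called in either direction and 1.56% called higher, so the share called was close to the background. At an unadjusted p under 0.05 there were 13 of the 34, 11 higher and 2 lower (Uros and Hbb-bt), where 21.5% of all genes had such a p.

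Besides Sptb, the smallest adjusted p-values in this limma fit were 0.0508 for Ppox, 0.0715 for Kel, 0.0776 for Slc4a1 and 0.0881 for Ank1. Their log2 differences at equal globin were 0.38, 0.63, 0.53 and 0.44. All 4 missed the threshold. Gata1, whose values per 10000 globin counts did not overlap, had a log2 difference of 0.38 (0.07 to 0.68) and an adjusted p of 0.154, and Hbb-bt had −0.89 (−1.63 to −0.14) and 0.166.

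**Figure D5:**
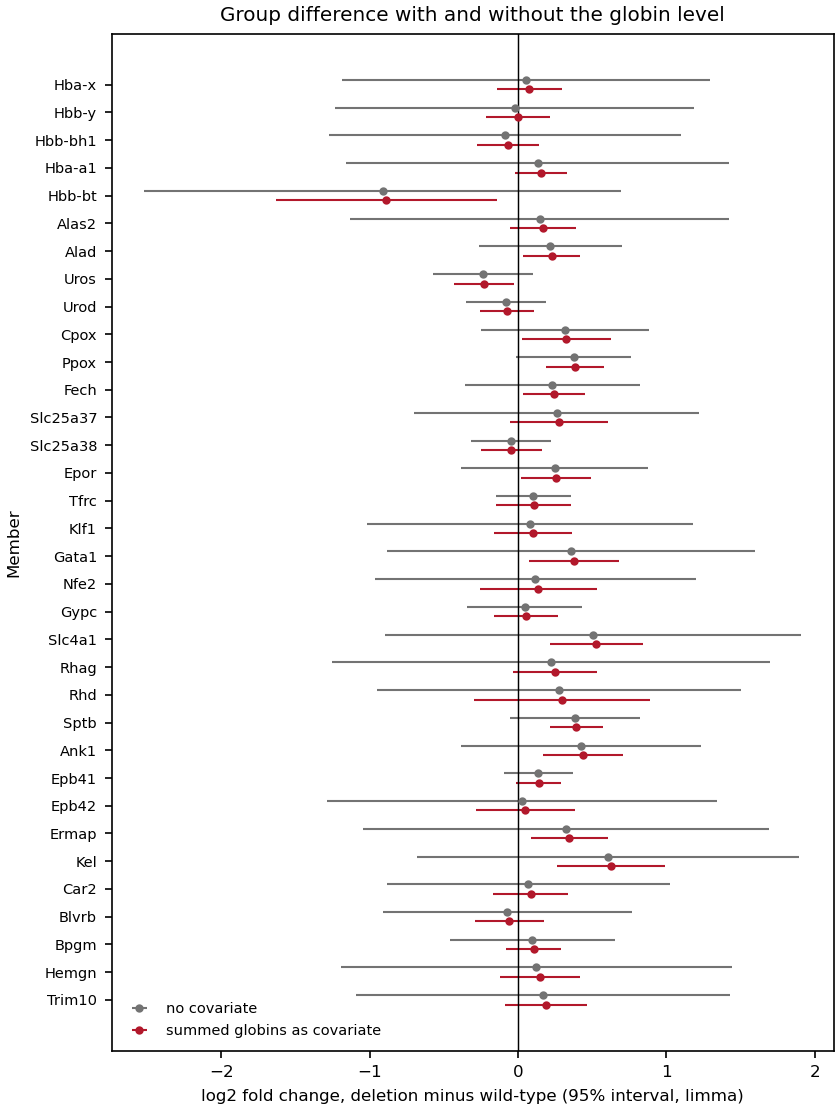
Log2 fold change of each of the 34 measured erythroid genes, deletion minus wild-type, with 95% confidence intervals from limma on log2(normalized count + 1), 3 libraries a group. Grey is the fit without a covariate, where every interval crosses 0, and red the fit with the log2 of the summed globins as a covariate, where intervals are shorter for genes that follow globin and Sptb, at 0.39, is the gene called.

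A wider list of 56 other erythroid genes, none of them among the 34, had 51 with a row. By limma 0 were lower and 0 were higher. The 2 with the smallest p were Cd36, a fatty acid and thrombospondin receptor also made by endothelium and muscle, and Bnip3l, which clears mitochondria from maturing red cells. Cd36 gave 1168, 1098 and 1268 normalized counts in the wild-type and 1489, 1384 and 1536 in the deletion libraries, with no overlap, a log2 fold change of 0.32 and an adjusted p of 0.0573. Bnip3l gave 5504, 6450 and 6143 in the wild-type and 7347, 7091 and 7174 in the deletion libraries, with a log2 fold change of 0.26 and an adjusted p of 0.0811. Neither had the globin order of libraries. Both were called higher after quantile normalization (1.98% of all genes higher) and by DESeq2 (3.73%), Cd36 also at equal totals without globins (2.56%), and Bnip3l also without wild-type replicate 2 (3.04%, adjusted p = 0.0370 by limma).

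Of the 51, both orders of libraries held for 20, and 7 had a fold of 4 or more between deletion replicates 3 and 1. In 28 of the 51 the fold was under 1.5.

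Markers of other blood and yolk sac cells were read beside these genes, and their part in the results was not tested. Of 12 macrophage markers 4 had a row, and their sum was 407 to 463 normalized counts in the wild-type and 552 to 606 in the deletion libraries. Mrc1, the mannose receptor, was the 1 of these called higher, with a log2 fold change of 1.08 and an adjusted p of 0.00637 by limma. Of 12 megakaryocyte and platelet markers 8 had a row, with sums of 2771 to 3229 and 3265 to 3913, and Vwf was called higher, at 0.42 (adjusted p = 0.0303 by limma). Of 10 early progenitor markers 8 had a row, with sums of 4435 to 4537 and 5057 to 5228, and Cd34 was called higher, at 0.31 (adjusted p = 0.0363 by limma). These 3 sums did not overlap between groups, as was the case for 27.4% of single genes. Without the gene called they did overlap: 305 to 334 and 316 to 335 without Mrc1, 1955 to 2333 and 2157 to 2669 without Vwf, and 2582 to 2680 and 2669 to 2944 without Cd34. Each gene left out was picked because it passed in these same data, so this overlap does not decide whether the other markers differ. Mrc1, Vwf and Cd34 are also made by some endothelial cells.

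Neither the macrophage sum nor the progenitor sum had the order of libraries that the erythroid genes showed. The megakaryocyte sum had it, and 3 of the 8 genes had it singly. Among 10 endothelial markers, which sum to 19540 to 21617 normalized counts in the wild-type and 20372 to 21287 in the deletion libraries, Tek was called lower and Kdr higher. For these and the 3 lists before, the share of all genes called by limma in either direction was 3.05%.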

How the data were processed

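Libraries were made with a stranded poly(A) kit from 300 ng of total RNA each, per the labels' protocols. Tools in the submitters' processing notes are STAR 2.7.9a and Subread 2.0.1 with featureCounts, bcl2fastq 2.20, and DESeq2 1.30.1; the builds there are mm39 and GRCm39. Not given in the sources used here are the annotation, the strand setting and the filter on genes. The authors deposited a signal per gene, named normalized counts in the file names. In each column the values came out as whole reads times a fixed step, the form that scaling by a library's size factor gives.

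The members and the gene lists were chosen with earlier results of these data known. Columns were given to samples by title code. All 15330 rows were tested by limma-trend on log2(normalized count + 1), using limma 3.58.1 under R 4.3.3, with a mean of at least 10, which removed 0 rows (the lowest mean was 15.4). Fold changes are on that scale, which understates changes of low genes. Tests are two-sided, with Benjamini-Hochberg adjustment and a threshold of 0.05. Intervals are 95% confidence intervals. The fit was tested on simulated counts. Their spread was not set to that of the erythroid genes, so that run does not show how well differences in these genes would be found.

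Reads were recovered from the step between values in each column: 100% of values came out whole within 0.01. In 3 of the 6 columns the smallest value is worth 2 reads, so there the recovery rests on the step alone. On these reads edgeR 4.0.16 and DESeq2 1.42.0 served as alternatives only. Ratios within a library were tested by exact permutation. Every library's value is given for all globins, the 2 most abundant genes of each role, any member called, and Gata1, Klf1, Epor and Tfrc. Alas2 was added for its role, Rhag for its fold between deletion replicates 1 and 3, and Slc4a1 for its level, after their values were seen. Results for some genes are not reported here.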

Additional observations from a re-analysis of the deposited data

How the results depend on the processing

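With each alternative run, 0 of the 34 members were called lower, and 0 were called higher except for 1, Sptb, with the summed globins as a covariate. The signs of all 34 held under both other pseudocounts (0.5 and 10), no minimum, a mean of at least 50, equal medians, sex as a covariate and the replicate block. Among the other erythroid genes 2 were called higher after quantile normalization and 2 by DESeq2 (Cd36 and Bnip3l both times), 1 at equal totals without globins (Cd36), 1 with the globin covariate (Add2) and 0 to 1 with a library left out (Bnip3l, without wild-type replicate 2).

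Small fold changes turned sign. Hbb-y moved from −0.02 to 0.0042 by quantile normalization, 0.022 at equal totals without globins, and 0.14 by edgeR and by DESeq2. Hbb-bh1 came to 0.081 by both, and Blvrb to 0.057 by edgeR and 0.059 by DESeq2; both tools compare means and not mean logs. The summed globin difference was 0.025 at equal totals without globins. Under the recorded file assignment all 34 members were positive, with a median of 0.92. By limma 23 of the 34 had an unadjusted p under 0.05, beside 414 of all 15330 genes. Under that assignment 0 of all genes were called, the 34 included, and the lowest adjusted p of the 34 was 0.9999 by limma. There the values were 1.28 for Hbb-y and for Hbb-bh1, 1.84 for Hbb-bt, 0.38 for Uros, 0.31 for Urod, 0.24 for Slc25a38, 0.84 for Blvrb, 0.57 for Hand2, 1.3 for the summed globins, 0.59 for the log2 ratio of adult-type to embryonic beta globin and −0.23 for the non-globin genes per globin.

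With each library left out, 27 of the 34 log2 fold changes took both signs, and 7 kept theirs (Ank1, Cpox, Epb41, Hbb-bt, Ppox, Sptb and Uros). The ranges were Alad −0.047 to 0.49, Alas2 −0.48 to 0.80, Blvrb −0.47 to 0.40, Bpgm −0.21 to 0.37, Car2 −0.43 to 0.51, Epb42 −0.62 to 0.64, Epor −0.048 to 0.54, Ermap −0.30 to 0.99, Fech −0.065 to 0.50, Gata1 −0.17 to 0.97, Gypc −0.18 to 0.20, Hba-a1 −0.50 to 0.79, Hba-x −0.58 to 0.68, Hbb-bh1 −0.65 to 0.52, Hbb-y −0.57 to 0.62, Hemgn −0.53 to 0.81, Kel −0.027 to 1.19, Klf1 −0.40 to 0.68, Nfe2 −0.37 to 0.73, Rhag −0.48 to 1.00, Rhd −0.30 to 0.68, Slc25a37 −0.20 to 0.68, Slc25a38 −0.16 to 0.056, Slc4a1 −0.12 to 1.22, Tfrc −0.0039 to 0.20, Trim10 −0.39 to 0.83 and Urod −0.20 to 0.027. The summed globin difference ranged from −0.60 to 0.61 and the log2 ratio of Hba-a1 to Hba-x from −0.0016 to 0.16.

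Replicate numbers do not pair the libraries: same-numbered deviations correlated at −0.03, −0.12 and −0.14, and no library correlated best with its own number. With the replicate block 0 members were called, and over all genes 110 were lower and 96 higher, against 230 and 237 without it. Few reads limit Hbb-bt, at 20 to 329 a library, and Rhd, at 26 to 125.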

Other observations

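Of 10 genes of iron storage and haem breakdown 0 were called in either direction by limma, and 9 of their 10 log2 fold changes were below 0. Hmox2, the constitutive haem oxygenase, gave 1750, 1543 and 1749 normalized counts in the wild-type and 1359, 1376 and 1421 in the deletion libraries, replicates 1, 2 and 3 in order, with a log2 fold change of −0.28 and an adjusted p of 0.0701 by limma. Slc40a1, the iron exporter ferroportin, gave 90.8, 109.4 and 112.6 in the wild-type and 40.1, 72.4 and 100.4 in the deletion libraries. None of the 10 had the order of libraries that the globins showed.

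Of 11 yolk sac endoderm markers 9 had a row and 0 were called by limma. Of the 9 log2 fold changes 7 were below 0 and 2 above, with a median of −0.49. Afp, alpha-fetoprotein, was 1 of the 2 above 0, at 0.37. It gave 266.7, 539.1 and 654.3 normalized counts in the wild-type and 978.4, 154.1 and 1353 in the deletion libraries. Its lowest library was deletion replicate 2, which was neither the poorest nor the richest in globin, and none of the 9 had the globin order of libraries. All genes in these paragraphs were chosen after their values were seen.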
